A study of Sus scrofa with 6 samples.

Results

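Immediate-early genes are transcribed within minutes of a stimulus, without new protein synthesis, when MAP kinases and other kinases act on factors already bound at their promoters, such as SRF. Many of their products are transcription factors (FOS, JUN, the EGR and NR4A families) and many others end the response again, by removing phosphate from MAP kinases (the DUSP family) or by speeding the decay of mRNA (ZFP36). In blood leukocytes these RNAs are known to rise on activation of the cells, and also while blood is handled. Their levels were examined in peripheral blood mononuclear cells (PBMCs), the lymphocytes and monocytes of blood, from leptin transgenic pigs and controls. A list of 45 such genes was searched by symbol in the deposited table of 11564 genes. The symbols of 35 were found, and each of these 35 had an FPKM (fragments counted on a transcript, relative to its length and to the size of the library) of at least 1 in at least 3 of the 6 libraries, so that all 35 stood among the 10735 genes tested. The other 10 symbols (FOSB, FOSL2, JUNB, JUND, NR4A1, NR4A3, KLF2, DUSP6, IER5 and GADD45A) did not occur in the symbol column, in which 4000 rows are blank.

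The libraries came from 6 Yorkshire pigs at 6 months of age. Of these, 3 were labelled WT and 3 were labelled Leptin-overexpressing, and the labels carry replicate numbers 1 to 3 in each. They are called wild type 1, 2 and 3 and leptin 1, 2 and 3 here. The leptin pigs carried a pig leptin transgene on a plasmid that also encodes AcGFP, which the study's text places under the pig leptin promoter. They were made by nuclear transfer from transfected, neomycin-selected fetal fibroblasts, and controls were nontransgenic. The vein from which blood for the PBMCs was drawn, how PBMCs were separated, and how long and at what temperature blood was held before lysis are not given in the sources used here. An effect of blood handling on the values below was therefore not tested.

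Some facts of the libraries stand before the results. LEP was at 50.0 FPKM in wild type 1, listed at 0 in wild type 2 and at 0.118 in wild type 3, against 0, 18.3 and 39.3 FPKM in leptin 1, 2 and 3, so both replicate 1 libraries go against their labels. Columns were tied to labels by animal code alone, so every direction below is that of the labels as deposited and is open to this doubt, and the library extremes, the label comparison of the members and the calls in the inflammatory and later activation lists are also given without both replicate 1 libraries. Of 10 T cell markers 10 were found in the table, with a summed level of 939 to 1269 FPKM in wild type and 849 to 1462 FPKM in leptin. Of 10 monocyte markers 8 were found, summing to 393 to 901 FPKM and to 551 to 937 FPKM. Of 12 neutrophil markers 6 were found, summing to 413 to 3519 FPKM and to 411.5 to 1268 FPKM, with wild type 1 the highest and leptin 2 next. MPO, CXCR2 and CSF3R were not found by symbol, and none of the markers found was listed at 0 in every library. The table holds no read counts, so the depth of each library is unknown. In RNA from mixed cells, fewer cells of a type and less RNA per cell cannot be told apart.

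The levels of the members ranged widely between single libraries. The highest library exceeded the lowest by a median of 2.12-fold over the 35 members (on FPKM + 1), against 1.49-fold over all genes tested. A range of at least 2-fold was found for 18 members (51.4%), against 14.7% of all genes tested. Wild type 3 was the lowest library for 20 of the 35 members (57.1%), while it was the lowest for 7.95% of all genes. Leptin 3 was the highest library for 15 members (42.9%), against 11.2% of all genes. Wild type 2 was the lowest for another 9 members (25.7%, against 17.1% of all genes). Neither leptin 1 nor leptin 3 was the lowest for any member, and they were the lowest for only 4.97% and 7.08% of all genes. Relative to each gene's mean over the 6 libraries, the median member stood at -0.39 in wild type 3 and 0.29 in leptin 3 on the log2(FPKM + 1) scale, and between -0.061 and 0.17 in the other 4. The median over all genes tested stood at 0.079 and 0.036 in wild type 3 and leptin 3. Without both replicate 1 libraries the median range was 1.95-fold for the members and 1.36-fold for all genes, wild type 3 was the lowest of the 4 for 20 members (57.1%, against 14.3% of all genes) and leptin 3 the highest for 18 (51.4%, against 20.8%). With FPKM rescaled by median-of-ratios, wild type 3 was the lowest for 19 members (54.3%, against 14% of all genes) and leptin 3 the highest for 10 (28.6%, against 11.8%).

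**Figure D1:**
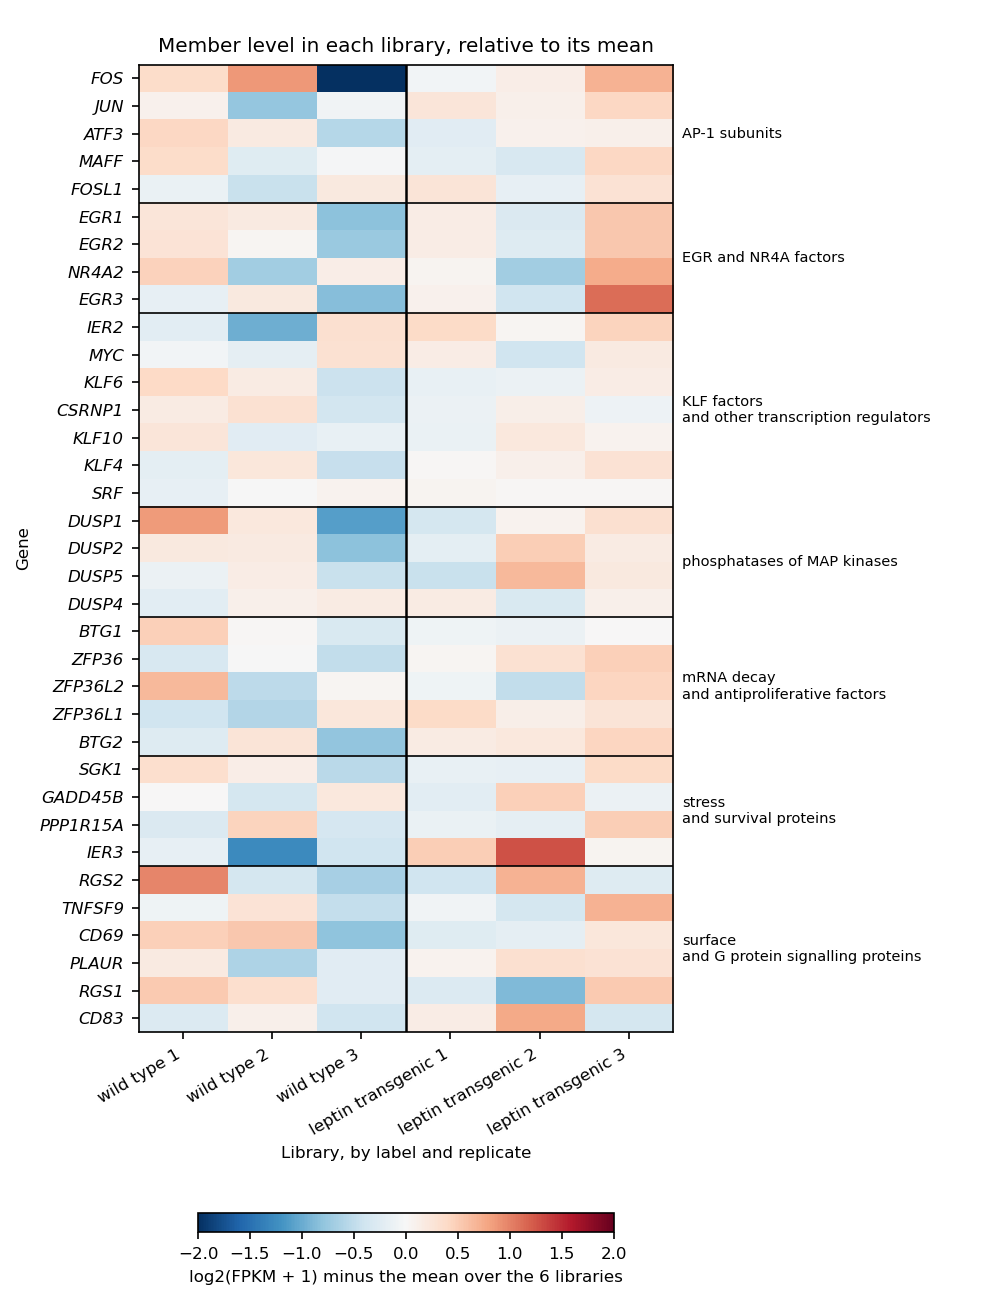
Level of each of the 35 members in each of the 6 libraries, as log2(FPKM + 1) minus the gene's mean over the libraries (colour), with genes grouped by role on the vertical axis and libraries by label and replicate on the horizontal axis. The column of wild type 3 is the lowest for 20 members, among them FOS, DUSP1 and EGR1, whereas JUN and IER2 are lowest in wild type 2.

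**Figure D2:**
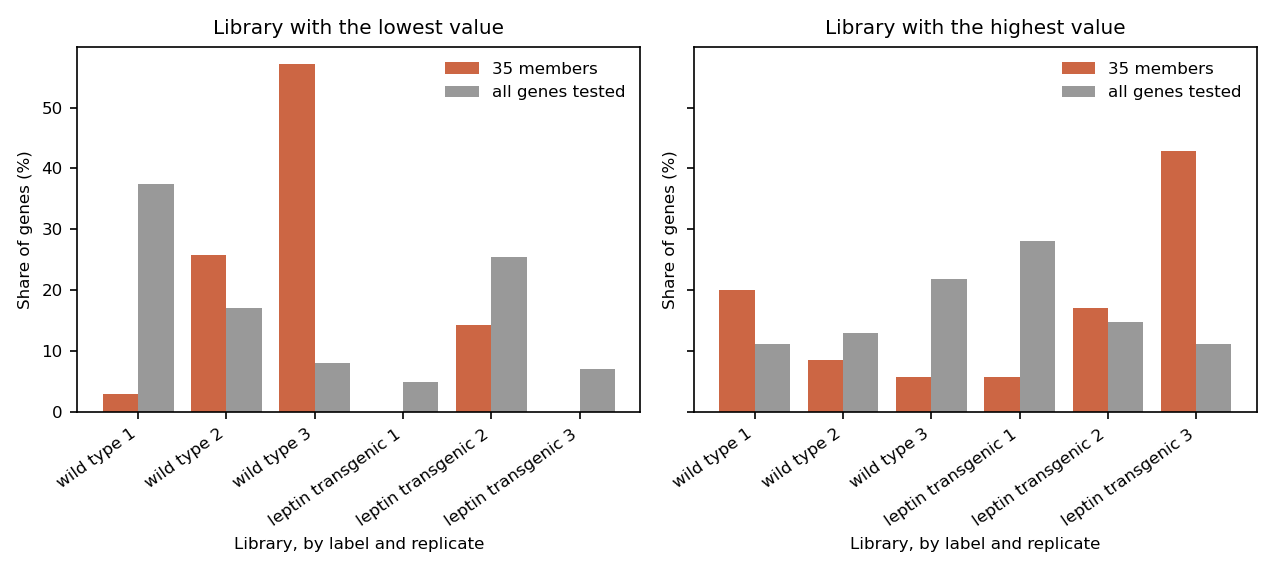
Share of genes, in percent, for which each library holds the lowest value (left) or the highest value (right), for the 35 members and for all 10735 genes tested. Wild type 3 holds the lowest value for 57.1% of members and 7.95% of all genes, and leptin 3 the highest for 42.9% and 11.2%.

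Among the AP-1 subunits, which pair through leucine zippers to bind DNA, FOS and JUN followed different libraries. FOS was at 196, 278 and 37.8 FPKM in wild type 1, 2 and 3 and at 146, 167 and 248 FPKM in leptin 1, 2 and 3. Wild type thus held both the highest and the lowest value, a 7.36-fold range, and every leptin library lay between them. JUN, which also binds as a homodimer, was at 116, 63.8 and 105 FPKM in wild type and at 131, 118 and 148 FPKM in leptin, with the lowest value in wild type 2. The leptin libraries all lay above the wild type libraries for JUN, the nearest pair being leptin 2 and wild type 1. ATF3, a stress-induced partner of JUN, was at 45.3, 38.2 and 22.5 FPKM in wild type and at 28.8, 35.7 and 36.3 FPKM in leptin. It had its lowest value in wild type 3, as FOS did. FOSL1 and MAFF were low throughout, from 1.10 to 2.5 FPKM and from 1.56 to 3.30 FPKM. FOSL1 was lowest in wild type 2 and MAFF in leptin 2.

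The zinc finger factors of the EGR family shared the low value of FOS in wild type 3. EGR1 was at 92.8, 89.3 and 43.8 FPKM in wild type and at 87.0, 64.0 and 113.9 FPKM in leptin. EGR2 ranged from 9.80 FPKM in wild type 3 to 25.3 FPKM in leptin 3. EGR3 was at 1.66, 2.42 and 0.655 FPKM in wild type and at 2.14, 1.26 and 5.42 FPKM in leptin. For these 3 genes the order of the extremes was thus the same, with wild type 3 at the bottom and leptin 3 at the top. NR4A2, an orphan nuclear receptor, ranged from 2.74 FPKM in leptin 2 to 9.09 FPKM in leptin 3. Over the 4 genes of the EGR and NR4A group the median deviation was -0.78 in wild type 3 and 0.64 in leptin 3 (log2), the widest of the 7 role groups in these libraries.

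SRF, which binds the promoters of FOS and EGR1 and so acts before the other members, had the smallest range of the 35. It ranged from 14.8 FPKM in wild type 1 to 17.7 FPKM in wild type 3, that is 1.18-fold on FPKM + 1, and in wild type 3 it had its highest value, where FOS had its lowest. IER2, a nuclear protein named for its early induction, was at 208, 121 and 299 FPKM in wild type and at 315, 247 and 329 FPKM in leptin. IER2 was lowest in wild type 2, as JUN was, and its groups overlapped. MYC, a factor for growth and division, was at 84.2, 76.4 and 107 FPKM in wild type and at 96.8, 66.1 and 99.1 FPKM in leptin. MYC and SRF were the only members with their highest value in wild type 3.

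The KLF factors and CSRNP1 varied less than the median member. Their ranges were at most 1.77-fold on FPKM + 1 (KLF6), against a median of 2.12-fold over the members. KLF6 was at 107.8, 91.8 and 60.6 FPKM in wild type and at 73.8, 75.3 and 90.7 FPKM in leptin. KLF4, known from monocyte differentiation, was at 31.7, 42.7 and 26.1 FPKM and at 37.0, 39.0 and 44.4 FPKM in the same order. Both had their lowest value in wild type 3, but the highest was wild type 1 for KLF6 and leptin 3 for KLF4. KLF10, induced by TGF-beta, was at 44.9, 32.2 and 34.0 FPKM in wild type and at 34.6, 44.3 and 39.8 FPKM in leptin, a 1.39-fold range on FPKM + 1. CSRNP1, a nuclear protein induced by AXIN1, was at 48.7, 53.3 and 33.2 FPKM in wild type and at 39.7, 47.0 and 40.3 FPKM in leptin. For both genes the leptin values lay inside the range of the wild type values.

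Of the 4 phosphatases that switch MAP kinases off, DUSP1 and DUSP2 had the highest means of all members after SGK1. DUSP1 was at 869, 556 and 225 FPKM in wild type and at 378, 509 and 600.2 FPKM in leptin. Its 3.87-fold range lay within wild type alone, with wild type 3 again the lowest. DUSP2, a nuclear phosphatase of lymphocytes and myeloid cells, was at 490.5, 487 and 242 FPKM in wild type and at 373, 599 and 477 FPKM in leptin. DUSP5, which acts on ERK in the nucleus, was at 43.2, 52.2 and 34.2 FPKM and at 34.2, 73.6 and 53.7 FPKM. Both were highest in leptin 2 and lowest in wild type 3, where DUSP5 differed little from leptin 1 (34.17 against 34.18 FPKM). DUSP4, a further phosphatase of the nucleus, was the lowest member by mean, from 0.678 to 1.32 FPKM.

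The proteins of the ZFP36 family bind AU-rich elements in mRNAs such as that of TNF and recruit the decay machinery, and the BTG proteins slow proliferation. ZFP36 was at 133, 165 and 118 FPKM in wild type and at 170.0, 205 and 232 FPKM in leptin, so that each leptin library lay above each wild type library. ZFP36L1 was at 98.1, 85.9 and 152 FPKM and at 168, 141 and 155 FPKM, with leptin 2 below wild type 3. ZFP36L2 showed another order, at 218, 96.0 and 142 FPKM in wild type and 131, 97.9 and 186 FPKM in leptin. The 3 paralogs thus had their lowest values in different libraries, ZFP36 in wild type 3 and the others in wild type 2. BTG1 was at 427, 312 and 249 FPKM in wild type and at 290, 281 and 308 FPKM in leptin. BTG2 was at 38.5, 55.5 and 26.3 FPKM in wild type and at 52.3, 54.1 and 62.7 FPKM in leptin. Both BTG genes were lowest in wild type 3, while BTG1 was highest in wild type 1 and BTG2 in leptin 3.

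Among stress and survival proteins, SGK1, a kinase induced by glucocorticoids and by changes of cell volume, had the highest mean of all members. It was at 953, 824 and 520 FPKM in wild type and at 680, 669 and 978 FPKM in leptin. GADD45B, an activator of stress MAP kinases, was at 131, 103 and 153 FPKM and at 113, 183 and 121 FPKM. PPP1R15A, which directs a phosphatase to eIF2 alpha and restores translation after stress, was at 25.4, 42.9 and 24.4 FPKM and at 28.2, 27.3 and 44.2 FPKM. For these 3 genes the groups overlapped widely. IER3, a survival protein induced through NF-kB, was at 8.14, 3.22 and 6.74 FPKM in wild type and at 13.3, 23.7 and 9.56 FPKM in leptin. All leptin libraries lay above all wild type libraries for IER3. Its 7.37-fold range was as wide as that of FOS on FPKM, but on FPKM + 1 it was 5.86-fold, against 7.20-fold for FOS.

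Of the surface proteins and regulators of G protein signalling, CD69, the early activation marker that holds lymphocytes in tissue, was at 39.4, 41.4 and 15.6 FPKM in wild type and at 23.5, 24.7 and 33.1 FPKM in leptin. TNFSF9, the ligand of the costimulatory receptor 4-1BB, was at 34.0, 43.7 and 25.6 FPKM and at 34.4, 28.0 and 59.1 FPKM. Both were lowest in wild type 3. RGS2, which speeds GTP hydrolysis by Gq, was at 187, 74.7 and 59.7 FPKM in wild type and at 71.9, 156 and 79.1 FPKM in leptin. Wild type 1 and leptin 2 stood apart from the other 4 libraries for RGS2. The same libraries had the highest sums of monocyte markers (901 and 937 FPKM, against 393 to 644 FPKM in the others) and of neutrophil markers (3519 and 1268 FPKM, against 411.5 to 695 FPKM), and the part of these cells in the RGS2 values was not tested. RGS1 lies 184.5 kb from RGS2 on chromosome 10 of the table and was lowest, at 5.76 FPKM, in leptin 2, where RGS2 was high. PLAUR, the urokinase receptor of myeloid cells, ranged from 13.8 FPKM in wild type 2 to 27.5 FPKM in leptin 2. CD83, a marker of mature dendritic cells and activated B cells, ranged from 2.59 FPKM in wild type 3 to 6.98 FPKM in leptin 2.

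**Figure D3:**
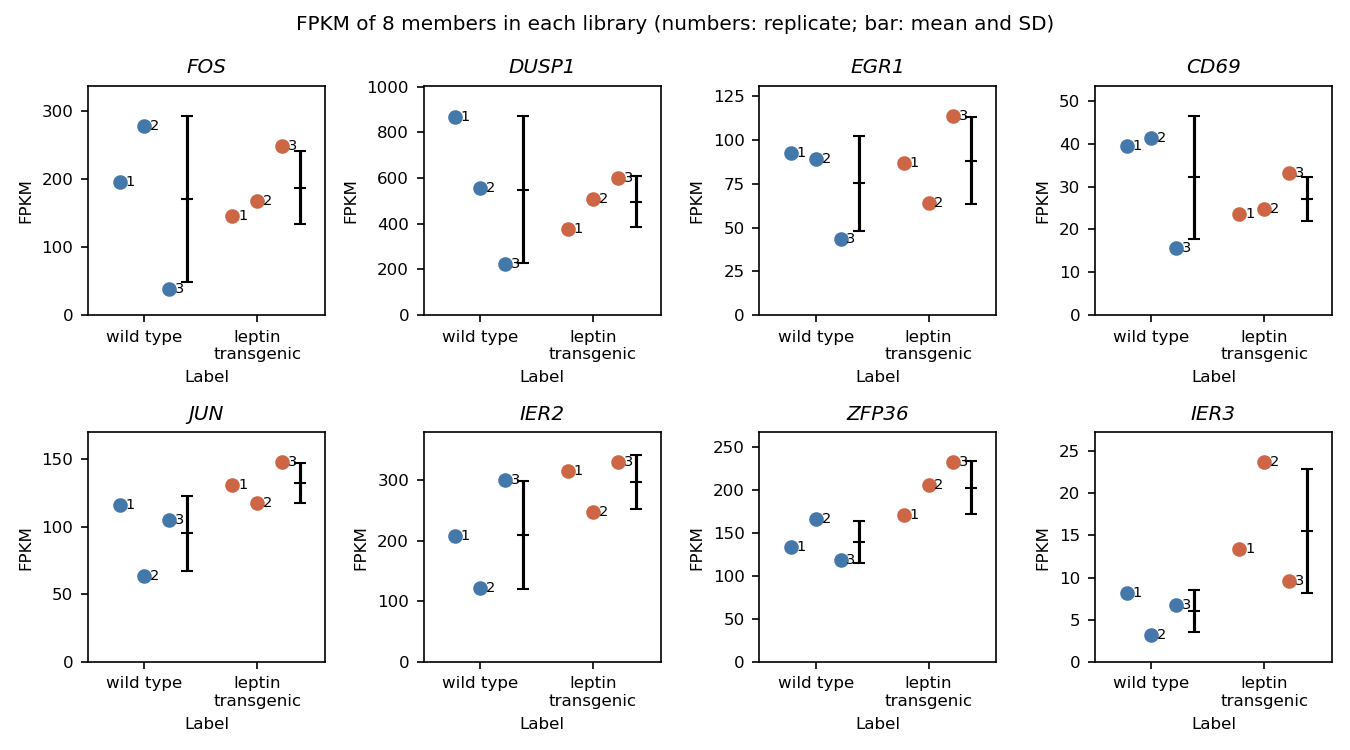
FPKM of 8 members in each library on a linear axis from 0, by label, with the replicate number beside each point and the mean with SD (n = 3) as a bar. FOS, DUSP1, EGR1 and CD69 have their lowest value in wild type 3, and JUN, ZFP36 and IER3 have all leptin points above all wild type points.

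The comparison of the labels asked whether the RNA of these genes differs between leptin pigs and controls. No member had an adjusted p under 0.05 in limma on log2(FPKM + 1), where 1 of 10735 genes (0.00932%) had one. At an unadjusted p under 0.05, 2 members were higher in leptin (5.71% of 35, against 1.98% of all genes tested) and 0 were lower (against 1.19%). The labels did not overlap for 3 members, all higher in leptin (8.57%, against 5% of all genes), and 0 members were lower in every leptin library (against 2.63%). The log2 fold change was above 0 for 25 members and below 0 for 10, and the median was 0.12, against 0.059 over all genes tested, of which 63.1% were above 0. With FPKM rescaled to an equal sum in each library, the median moved to -0.0099 for the members and to -0.053 for all genes, 17 of 35 members (against 37.3% of all genes) were above 0, and the shares of all genes higher and lower at the unadjusted p were 0.755% and 2.77%. With median-of-ratios rescaling 21 members (against 50.4% of all genes) were above 0, and these shares were 1.56% and 2.33%. A two-sided exact permutation test of 3 libraries against 3 cannot go below 0.1.

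IER3 had the largest difference. It is ENSSSCG00000027607, placed by the table, which names no genome build, on chromosome 7 between 26987520 and 26988891. Its FPKM was 6.03 ± 2.54 (SD, n = 3) in wild type and 15.5 ± 7.31 (SD, n = 3) in leptin. The log2 fold change was 1.22 (standard error 0.37, unadjusted p = 0.0113, adjusted p = 0.993, limma), and an exact permutation test gave p = 0.1. In the limma fit without moderation of the variance the unadjusted p of IER3 was 0.0694. ZFP36 (ENSSSCG00000010708, on chromosome 14) had 139 ± 24 and 202 ± 31.0 FPKM (SD, n = 3), a log2 fold change of 0.54 (standard error 0.19, unadjusted p = 0.0197, adjusted p = 0.993, limma). With FPKM rescaled by median-of-ratios the unadjusted p of ZFP36 was 0.0598, and the labels overlapped. JUN (ENSSSCG00000030839, on chromosome 6) had 95.1 ± 27.7 and 132 ± 14.9 FPKM (SD, n = 3), a log2 fold change of 0.51 (standard error 0.24, unadjusted p = 0.0618, adjusted p = 0.993, limma). After the same rescaling the labels of JUN overlapped as well, while ZFP36L1 (unadjusted p = 0.0548 as reported, limma) had labels that did not overlap and passed the unadjusted threshold.

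Of the other members with the 5 largest log2 fold changes in each direction, none passed the unadjusted threshold. IER2 had a log2 fold change of 0.58 (standard error 0.31), BTG2 of 0.54 (standard error 0.26) and EGR3 of 0.53 (standard error 0.40). Single libraries moved these values, IER2 to 0.24 without wild type 2 and 0.88 without wild type 3 (unadjusted p = 0.0111, limma), BTG2 to 0.28 without wild type 3 and 0.80 without wild type 2 (unadjusted p = 0.00648, limma), and EGR3 to 0.11 without leptin 3, 0.25 without wild type 3 and 0.86 without leptin 2. EGR3, at 1.58 ± 0.88 FPKM in wild type and 2.94 ± 2.19 FPKM in leptin (SD, n = 3), is low enough that the pseudocount of 1 understates its fold. In the other direction, RGS1 had -0.42 (standard error 0.35), CD69 -0.13 (standard error 0.35), BTG1 -0.13 (standard error 0.21), ZFP36L2 -0.10 (standard error 0.33) and KLF6 -0.083 (standard error 0.23). Without wild type 1 the signs of CD69 (0.068), BTG1 (0.070), ZFP36L2 (0.19) and KLF6 (0.092) turned, as did that of CD69 without wild type 2 (0.10) and that of ZFP36L2 without leptin 2 (0.12). FOS, singled out after its values were seen, had 0.51 (standard error 0.65), and its log2 fold change was -0.36 without wild type 3. Every member named in this paragraph and the last, FOS included, had an adjusted p of 0.993 in limma over all libraries.

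**Figure D4:**
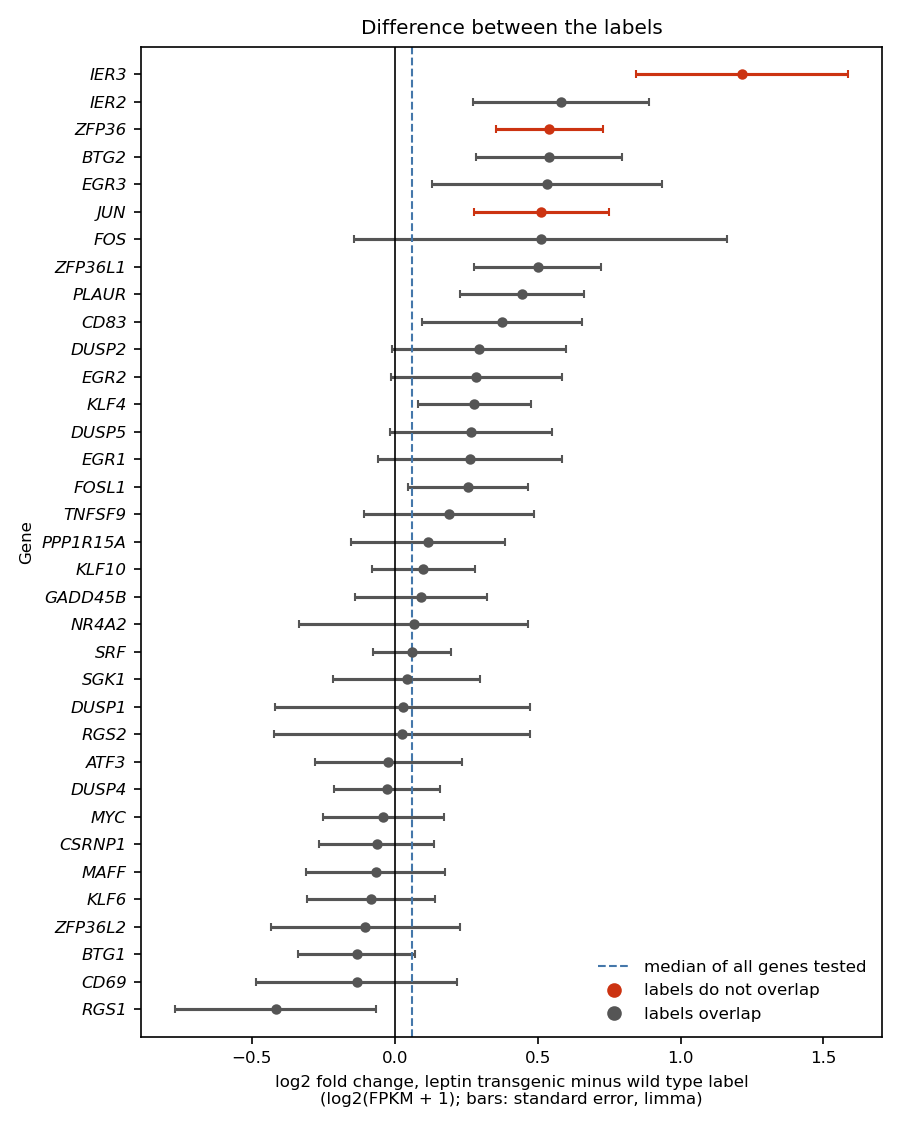
Log2 fold change of each of the 35 members, leptin minus wild type label, on the log2(FPKM + 1) scale with its standard error from limma, sorted by size. IER3, ZFP36 and JUN are the members whose labels do not overlap, and the dashed line marks the median of all genes tested at 0.059.

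Leaving out single libraries changed which members stood apart. Without wild type 3, the labels did not overlap for 6 members higher in leptin (IER2, IER3, JUN, SRF, ZFP36 and ZFP36L1; 20.7% of all genes did so) and for 5 lower in leptin (ATF3, BTG1, CD69, CSRNP1 and KLF6; 6.1% of all genes). In that fit 18 of 35 members had a log2 fold change above 0 (51.4%, against 67.5% of all genes), with a median of 0.046 for the members and 0.11 for all genes. CD69 then had a log2 fold change of -0.57 (unadjusted p = 0.0208, adjusted p = 0.614, limma). Without leptin 3, RGS1 was lower in leptin, with a log2 fold change of -0.78 (unadjusted p = 0.0247, adjusted p = 0.999, limma), whereas without leptin 2 it was -0.081 (unadjusted p = 0.801, limma). Without both replicate 1 libraries, whose LEP goes against the labels, 31 of 35 members had a log2 fold change above 0 (88.6%, against 43.2% of all genes tested). In these 2 against 2 libraries the median of the members was 0.31, against -0.032 over all genes. Wild type 3 remained among them and was the lowest library for 20 members (57.1%, against 14.3% of all genes). The members then higher at an unadjusted p under 0.05 were IER3, PLAUR and ZFP36 (3 of 35, 8.57%, against 1.11% of all genes). The labels then did not overlap for 7 members, all higher in leptin (20%), against 10.4% of all genes higher and 15.5% lower. In the same libraries monocyte markers summed to 496.5 and 393 FPKM in wild type and to 937 and 644 FPKM in leptin. LYZ, a large part of these sums, was at 129 FPKM in wild type 2 and 325 FPKM in leptin 3. The median deviation of the monocyte marker rows was 0.045 and -0.66 in wild type and 0.49 and -0.28 in leptin (log2). By that measure leptin 3 stood below wild type 2, the reverse of the order of their sums. Neutrophil markers summed to 695 and 413 FPKM and to 1268 and 639 FPKM. Of 9 monocyte marker rows, LYZ passed the unadjusted threshold as higher and CD68 as lower (limma, against 1.11% and 1.37% of all genes). The part of cell composition in these shifts was not tested.

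JUNB and IER5 lack a symbol in the table but could be matched by gene identifier to the reference table of gene names. The match was made after the data had been seen, and the 2 genes are in none of the counts. JUNB, an AP-1 subunit, was at 689, 412 and 533 FPKM in wild type and at 641, 779 and 816 FPKM in leptin, with a log2 fold change of 0.48 (unadjusted p = 0.0551, adjusted p = 0.993, limma). IER5, a regulator of the heat shock factor HSF1, was at 34.6, 30.4 and 44.5 FPKM and at 50.0, 47.4 and 49.4 FPKM, and all leptin libraries lay above all wild type libraries (unadjusted p = 0.0357, adjusted p = 0.993, limma). Both were lowest in wild type 2, as were JUN, IER2 and ZFP36L1, and neither shared the low value of FOS in wild type 3.

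Genes that act before or beside the members were read from further lists. Of 39 genes of the signalling upstream (MAP kinases, RAS and RAF proteins, ELK and CREB factors and coactivators), 23 were tested, and 0 rose and 0 fell at an unadjusted p under 0.05 (limma, against 1.98% and 1.19% of all genes). BRAF passed as lower with median-of-ratios rescaling (against 2.33% of all genes), with an equal sum of FPKM (against 2.77%) and without moderation (against 1.13%). MAPK14 passed as lower without wild type 3 (against 2.25%). The median range of the 23 genes between libraries was 1.40-fold on FPKM + 1, and 2 of the 23 were lowest in wild type 3. BRAF, a kinase upstream of ERK, was the 1 gene of the 23 lower in every leptin library (against 2.63% of all genes), at 5.08, 4.94 and 4.98 FPKM in wild type against 4.30, 3.94 and 3.77 FPKM in leptin (unadjusted p = 0.0829, adjusted p = 0.993, limma).

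Of 22 early inflammatory genes, which share NF-kB and AP-1 as regulators, 14 were tested, and 3 were higher and 0 lower at an unadjusted p under 0.05 (limma, against 1.98% and 1.19% of all genes). They were the chemokine CCL4, TNF and NFKBIA, which encodes the inhibitor of NF-kB. CCL4 was at 16.4, 18.1 and 9.34 FPKM in wild type and at 53.7, 132.6 and 65.7 FPKM in leptin. TNF was at 18.4, 8.76 and 35.9 FPKM and at 43.4, 47.5 and 46.6 FPKM. NFKBIA was at 114.2, 72.1 and 93.3 FPKM and at 144.7, 211.6 and 112.4 FPKM, with leptin 3 just under wild type 1. The adjusted p was 0.898 for CCL4 and 0.993 for TNF and NFKBIA (limma). CXCL2 and CCL3L1 had log2 fold changes of 1.23 and 0.72, with an unadjusted p over 0.05 (limma). CXCL2 was at 27.7, 11.3 and 3.56 FPKM in wild type and at 27.0, 29.4 and 23.3 FPKM in leptin. CCL3L1 was at 6.53, 3.70 and 3.86 FPKM and at 4.92, 19.5 and 5.335 FPKM, with wild type 1 next below leptin 2. The labels overlapped for both genes. The paper's text describes CCL4, CXCL2 and CCL3L1 as reduced in leptin pigs, the opposite of the sign of their log2 fold changes under the deposited labels. Only for CCL4 did every leptin library lie above every wild type library. The reason for this difference was not tested. CCL4, TNF and NFKBIA were highest in leptin 2, as was IER3, though TNF differed little there from leptin 3. Leptin 2 also had the highest sum of monocyte markers (937 FPKM, with wild type 1 at 901 FPKM), and the part of these cells in the values was not tested. The count of higher genes was 1 without moderation (CCL4, against 2.09% of all genes) and 2 with median-of-ratios rescaling (CCL4 and TNF, against 1.56%). It was 4 with the replicate block (against 2.01%). Without both replicate 1 libraries it was 4 (CCL4, CXCL2, NFKBIA and OSM, against 1.11%), and TNF was not among them. NFKBIA also lost the threshold without wild type 2 and without leptin 2, where CCL4 and TNF kept it. Of the 14 genes 6 were lowest in wild type 3, with a median deviation of -0.28 (log2).

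Of 14 genes of later lymphocyte activation, 10 were tested and 1 was higher (against 1.98% of all genes), NFKBID, a nuclear regulator of NF-kB, at 25.9, 25.9 and 29.5 FPKM in wild type and 35.2, 37.1 and 31.8 FPKM in leptin (unadjusted p = 0.0423, adjusted p = 0.993, limma). After either rescaling, and without both replicate 1 libraries, 0 of them were. Of the fits that leave out one library NFKBID passed only in that without wild type 3 (against 5.74% of all genes). With the replicate block TNFRSF4 passed in its place (against 2.01% of all genes). Of the 8 heat shock and cell stress genes, the 11 hypoxia genes and the 4 glucocorticoid-responsive genes tested, 0 were higher and 0 lower at an unadjusted p under 0.05 (limma, against 1.98% and 1.19% of all genes). HSPE1 (1 of the 8) and ADM (1 of the 11) were higher in every leptin library, against 5% of all genes. Their unadjusted p was 0.0676 and 0.0707 (limma). No gene of these lists was lower in every leptin library (against 2.63% of all genes). Single fits moved the counts at the unadjusted p. ADM, ANKRD37 and HSPE1 were higher without wild type 1 (against 1.33% of all genes). HSPH1 was lower without wild type 2 (against 1.06%) and with the replicate block (against 1.56%). TXNIP was lower without wild type 3 (against 2.25%) and PER1 was lower without leptin 3 (against 1.5%). TXNIP, a thioredoxin inhibitor on the glucocorticoid list, was at 1088, 784 and 430 FPKM in wild type and at 449, 652 and 712 FPKM in leptin, with wild type 3 the lowest and wild type 1 the highest, as for DUSP1. Of the 4 glucocorticoid-responsive genes 2 were lowest in wild type 3, and of the 8 heat shock and cell stress genes 0 were. Monocyte markers were lowest there too, with 5 of 9 rows at their lowest and a median deviation of -0.66 (log2), as were 3 of 5 neutrophil marker rows with a median deviation of -1.12, while T cell markers stood at 0.15, and the part of cell composition in the low values of FOS and DUSP1 was not tested.

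Locus length, level and annotation of the members were set beside those of all genes tested, which passed the same filter on FPKM. The loci of the members were short, with a median of 4258 bp in the table against 16620 bp over all genes tested, and 26 of 35 (74.3%) were under 10000 bp, against 35.6% of all genes. Their levels were high, with a median of 43.7 FPKM over the 6 libraries against 9.05 FPKM, and 12 members (34.3%) had a mean of at least 100 FPKM, against 6.53% of all genes. A KEGG pathway was given for 12 members, and 6 of these (DUSP1, DUSP4, FOS, JUN, MYC and SRF) were placed in MAPK signalling, which held 90 of the 1935 annotated genes among those tested. MAP kinase phosphatases and factors induced through MAP kinases were on the list by its definition. The spread within wild type was larger than within leptin for 24 of 35 members (68.6%), against 59.0% of all genes, with a median SD of 0.43 and 0.32 on the log2 scale, against 0.22 and 0.18 over all genes.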

How the data were processed

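PBMC RNA of 6 pigs, 3 per label, was measured by RNA-seq. The authors deposited FPKM values, 1 per gene and library, from paired-end reads. The sources differ on how these were made. The submitters' processing notes name STAR 2.5, Cuffnorm and DESeq 1.22.1, while the paper names Bowtie, the Ensembl transcriptome and RSEM. The authors' own log2 fold changes, p-values and FDR are also deposited in the table and were not used. Columns were matched to samples by the animal code in the labels, with none unmatched. Each library has an animal code of its own.

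The 10735 genes that reached 1 FPKM in 3 or more libraries were tested by label alone on log2(FPKM + 1), two-sided, using lmFit and eBayes of limma 3.58.1 under R 4.3.3 with default settings and Benjamini-Hochberg adjustment over all genes tested. Folds of low genes are understated by the pseudocount. Exact permutation tests used SciPy 1.17.1 under Python 3.11.15. The fit was tested on simulated data first. FPKM values hold no depth, so no counting interval is given.

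The members and lists were chosen with earlier results of these data known, so no set was tested as a whole. All members are named. The value in every library is given for the 24 with the highest mean, and for those with an unadjusted p under 0.05, with labels that do not overlap or with a 4-fold range on FPKM + 1, and also for EGR3. Fold changes are given for those 3 kinds of call other than range, for the 5 largest in each direction and for FOS. Of 7417 table identifiers found in the reference of gene names, 5913 had a symbol in the table, and 94.8% of these were the same symbol. Sequences of promoters and proteins were not used here.

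Alternatives were the pseudocount, the filter, median-of-ratios scaling, an equal sum of FPKM, variance without moderation, a trend in limma, a block for the replicate number, leaving out each library, and leaving out both replicate 1 libraries. Same-numbered libraries come from different animals.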

Additional observations from a re-analysis of the deposited data

How the results depend on the processing

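The match by identifier of JUNB and IER5 was chosen after seeing the data. The count of members with an adjusted p under 0.05 was 0 in limma under all 15 alternatives. At the unadjusted p, 2 members were higher as reported (against 1.98% of all genes). The count was 1 with an equal sum of FPKM (against 0.755%) and 1 without moderation (against 2.09%). It was 5 with the replicate block (IER2, IER3, JUN, ZFP36 and ZFP36L1, against 2.01%). With the trend and with the stricter filter it was 3 (IER3, ZFP36 and ZFP36L1 in both, against 1.99% and 2.05%). In the fits that leave out 1 replicate each it was 2 to 4 (against 1.28% to 5.74%). Lower members numbered from 0 to 1 with one replicate left out (against 0.893% to 2.25%). The number of members whose labels do not overlap was 3 as reported, 1 with an equal sum of FPKM (2.86%, against 8.73% of all genes in either direction), 7 without both replicate 1 libraries (20%, against 25.9%) and 5 to 11 in the fits without one replicate (14.3% to 31.4%, against 12.3% to 26.8%), where fewer libraries make such a gap easier to reach. The cause of these changes was otherwise not tested. The median log2 fold change of the members was positive under 14 of the 15 alternatives, at -0.0099 with an equal sum of FPKM, and ranged from 0.046 to 0.26 with one replicate left out, where that of all genes ranged from 0.0066 to 0.11. Without wild type 3 the median of the members (0.046) was below that of all genes (0.11). Without both replicate 1 libraries, signs reversed for BTG1 (0.077), CD69 (0.16), KLF6 (0.15) and ZFP36L2 (0.21). With one replicate left out, the log2 fold changes that reversed ranged from -0.32 to 0.070 for BTG1, from -0.57 to 0.10 for CD69, from -0.32 to 0.092 for KLF6, from -0.39 to 0.19 for ZFP36L2 and from -0.36 to 1.07 for FOS. FOS was at -0.36 only without wild type 3. IER3 ranged from 0.88 to 1.49 with one replicate left out and kept an unadjusted p under 0.05 in each of these fits, but had 0.0694 without moderation. ZFP36 ranged from 0.43 to 0.67 and lost the threshold with both rescalings (0.48 and 0.41) and without wild type 3 or leptin 3. JUN, at 0.25 to 0.68, passed it with the replicate block (unadjusted p = 0.0329, limma) and without wild type 1. Adjusted p over the alternatives ranged from 0.614 to 1 for IER3 and for JUN, and from 0.622 to 1 for ZFP36. The replicate numbers do not pair animals. The deviations of same-numbered libraries correlated at -0.284, 0.135 and -0.0073, and the replicate block moved the higher members from 2 to 5. The number of members lowest in wild type 3 stayed between 18 and 24, and that of members highest in leptin 3 between 10 and 18, wherever that library was kept. The table holds no read counts, so what depth limits for low members such as DUSP4 or MAFF was not tested.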
